A study of Mus musculus with 9 samples.

Results

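The glucocorticoid receptor gene Nr3c1, the cortisone reductase gene Hsd11b1 and 8 target genes of the receptor (Fkbp5, Tsc22d3, Per1, Errfi1, Sgk1, Zbtb16, Klf9 and Dusp1) were taken by name from a table of 21959 genes, in which all 10 were present. Expression was measured by RNA sequencing in mesenchymal stromal cells (MSC) of mouse bone marrow, an adherent connective tissue type of cell, from a line that the labels mark SV40. Cultures received peritoneal fluid (PF) for 24 h. The fluid came from mice treated for 3 days with TNBS, a hapten with which colitis is induced in rodents (TNBS PF), or from control mice (control PF), and a further group received phosphate-buffered saline (PBS). Each group had 3 libraries, and the labels give a medium with 10% serum for all of them. The sources used here do not name the strain of the mice, the amount of fluid, or any pooling of fluids. Nothing states that the libraries of a group were separate cultures, so the p-values reflect the spread of these 9 samples alone, and that spread may be technical.

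Glucocorticoids are steroid hormones of the adrenal cortex that cross the cell membrane and bind a receptor held in the cytoplasm by heat shock protein chaperones. The bound receptor enters the nucleus, where it activates some genes at palindromic response elements and lowers the expression of many inflammatory genes. Hsd11b1 regenerates the active hormone inside the cell from its inert keto form. In stromal cells glucocorticoids are known for restraining cytokine production and for promoting adipogenic and osteogenic differentiation in culture.

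Depth, recovered from the deposited FPKM, was 22918866 to 25591791 assigned fragments with TNBS PF, 18600242 to 21520692 with control PF and 17863070 to 20323145 with PBS. All 12 stromal markers were detected in every library. Their summed level was 1462.4 to 1485.3 FPKM (assigned fragments per kilobase of exon, corrected for the depth of each library) with TNBS PF, 1533.8 to 1554.4 with control PF and 1554.8 to 1621.8 with PBS. Single stromal markers differed in both directions. Of the 12, 2 were called higher and 4 lower in TNBS PF against control PF, beside 5.15% and 5.45% of all tested genes. Against PBS 3 were higher and 5 lower, beside 7.8% and 8.88%. Control PF against PBS had 1 higher and 1 lower, beside 1.02% and 1.14%. Pdgfrb, lowest with TNBS PF like the summed level, averaged 14.2 ± 0.335 FPKM with TNBS PF, 18.8 ± 0.992 with control PF and 19.3 ± 0.304 with PBS. The summed level of 12 blood and endothelial markers was 1.9 to 2.68 FPKM with TNBS PF, 1.45 to 2.29 with control PF and 1.74 to 2.55 with PBS. Most of that sum was Cd68, with means of 1.96 FPKM with TNBS PF, 1.64 with control PF and 1.92 with PBS (1.4 to 2.39 over the 9 libraries). Ly6g reached 0.214 FPKM and Cd79a 0.111, while Ptprc, Cd3e and Hbb-bs did not exceed 0.0107 FPKM in any library. The summed level of 12 mesothelial markers was 52.7 to 57.9 FPKM with TNBS PF, 46.2 to 47.7 with control PF and 47.8 to 48.8 with PBS. Of these markers 4 could be tested and 3 were called higher with TNBS PF than with control PF and 3 than with PBS, as were 5.15% and 7.8% of all tested genes. The fourth, Slpi, had 4.94 ± 0.563 FPKM with TNBS PF, 6.04 ± 0.363 with control PF and 4.39 ± 0.805 with PBS (SD, n = 3 each) and was not called in either, whereas Upk3b, Krt8, Lrrn4 and Upk1b did not exceed 0.0407 FPKM. Most of the sum was Msln, with means of 42.2 FPKM with TNBS PF, 35.6 with control PF and 38.1 with PBS (35.2 to 44.9 over the 9 libraries). The part of these marker differences in the results that follow was not tested.

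Differences in the 10 genes were small and did not run in 1 direction. Genes were called at an adjusted p under 0.05, which 16.7% of all tested genes reached in TNBS PF against PBS. Errfi1, a feedback inhibitor of the epidermal growth factor receptor, was 1.39-fold higher in TNBS PF than in PBS by mean FPKM and was the only member called in all 3 comparisons, of which control PF against PBS lost its call without the filter on low values. Tsc22d3 and Sgk1 were 1.19-fold and 1.12-fold higher in TNBS PF than in PBS. Nr3c1 itself was at 0.845 of its PBS level in TNBS PF, and Klf9 at 0.892. Fkbp5, a gene widely used to read glucocorticoid action, did not pass the test in any comparison, and Zbtb16, another strongly inducible gene, was listed at 0 in all 9 libraries.

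**Figure D1:**
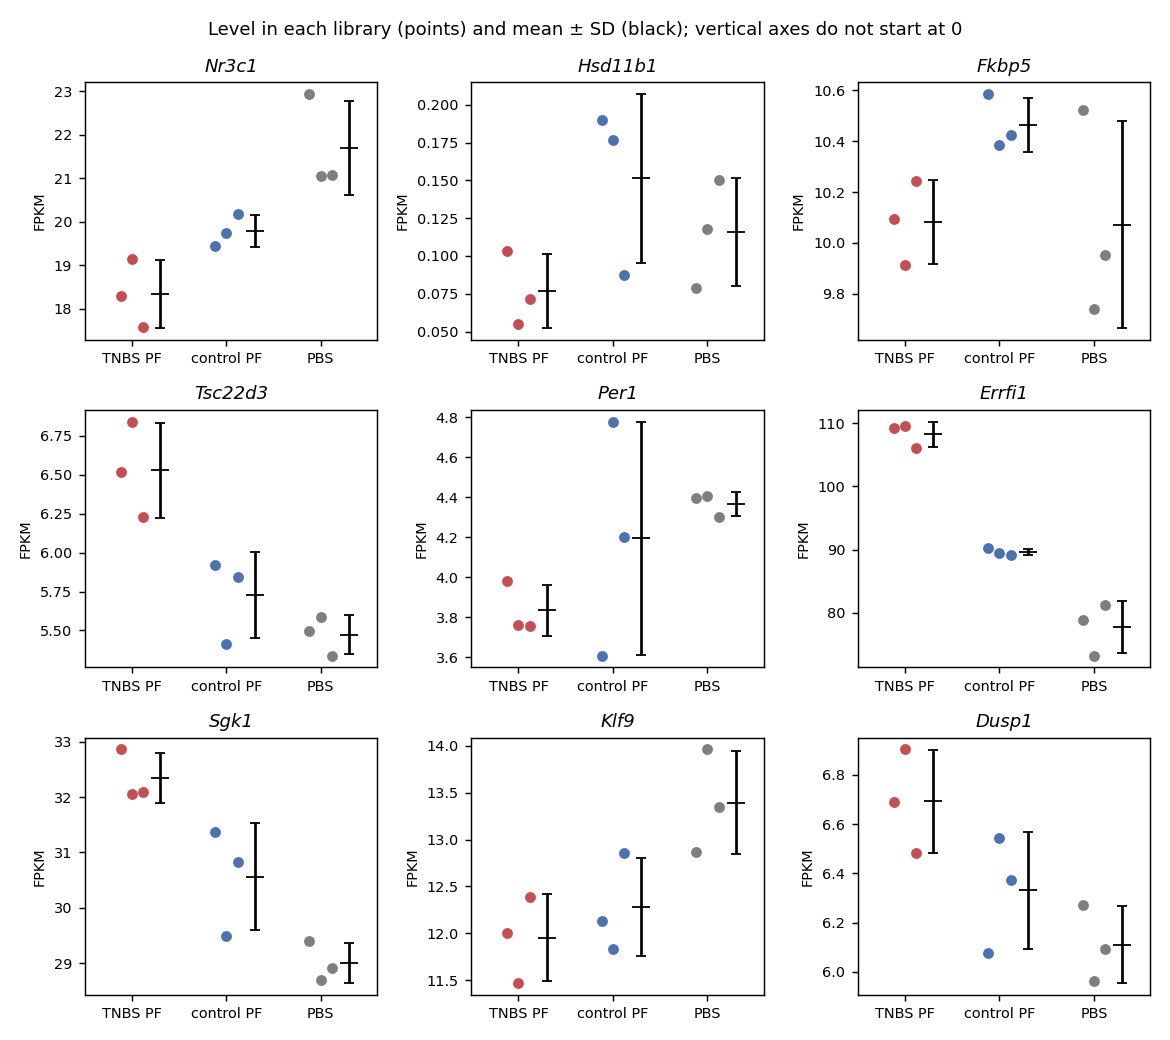
FPKM of 9 of the 10 genes in each library (points; TNBS PF, control PF and PBS from left to right) with the group mean and SD in black; vertical axes differ between panels and do not start at 0. The 3 TNBS PF libraries of Errfi1 lie at 106.0 to 109.6 FPKM, above all control PF and PBS libraries, whereas the Fkbp5 libraries span only 9.74 to 10.6 FPKM.

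Levels per length spanned a wide range. Over the 9 libraries the mean was 91.9 FPKM for Errfi1, 30.6 for Sgk1, 19.9 for Nr3c1, 12.5 for Klf9 and 10.2 for Fkbp5. Dusp1 averaged 6.38 FPKM, Tsc22d3 5.91 and Per1 4.13. The libraries of Dusp1 (5.96 to 6.9 FPKM) and Tsc22d3 (5.34 to 6.84 FPKM) overlapped, but Dusp1 was above Tsc22d3 in each of the 9 libraries. The 8 genes from Errfi1 to Per1 exceeded 1 FPKM in every library, the level required in at least 3 libraries for testing. Hsd11b1, at a mean of 0.115 FPKM, and Zbtb16 did not pass this filter and are given by their values.

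Counted together, 1 of the 8 tested genes was higher and 0 lower by limma in TNBS PF against control PF, where 10.6% of all 10537 tested genes were called, 5.15% higher and 5.45% lower. The control PF against PBS comparison had 1 higher and 0 lower, where 2.15% of all tested genes were called, 1.02% higher and 1.14% lower. With TNBS PF against PBS, 3 rose and 2 fell, where 16.7% were called, 7.8% higher and 8.88% lower. Over all tested genes that comparison gave 822 higher and 936 lower. The numbers were 624 and 1153 under TPM scaling, 773 and 876 under quantile normalization, and 972 and 819 under median-ratio scaling. The first 2 counts rest on Errfi1 alone, with 1 higher and 0 lower in limma voom in both. At an unadjusted p under 0.05, TNBS PF against control PF had 3 higher and 1 lower. Control PF against PBS had 2 higher and 2 lower at that threshold. In TNBS PF against control PF the groups did not overlap for 5 of the 8 genes, 3 higher and 2 lower, as for 31.8% of all tested genes (13.6% higher, 18.2% lower). The number was 4 in control PF against PBS, 2 higher and 2 lower, beside 18.6% of all tested genes (9.33% higher, 9.32% lower). It was 7 in TNBS PF against PBS, 4 higher and 3 lower, beside 35.3% (15.5% higher, 19.7% lower). The comparisons share libraries, so these counts are not independent of each other.

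The 8 log2 differences ran from −0.11 to 0.27 in TNBS PF against control PF, with a median of 0.02 beside −0.01 for all tested genes. They ran from −0.13 to 0.20 in control PF against PBS (median 0.05 beside 0.001) and from −0.23 to 0.47 in TNBS PF against PBS (median 0.06 beside −0.01). Between the 5th and the 95th percentile, all tested genes ran from −0.23 to 0.20 in TNBS PF against PBS. Errfi1, Tsc22d3 and Nr3c1 lay outside that span.

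Nr3c1 (ENSMUSG00000024431, mm10 chromosome 18, 39410545 to 39519421, minus strand) had 18.3, 19.1 and 17.6 FPKM in the TNBS PF libraries, 19.4, 19.7 and 20.2 FPKM in the control PF libraries, and 22.9, 21.1 and 21.1 FPKM in the PBS libraries. No 2 groups overlapped, with TNBS PF lowest and PBS highest. The means were 18.3 ± 0.776 FPKM with TNBS PF, 19.8 ± 0.372 with control PF and 21.7 ± 1.08 with PBS (SD, n = 3 each). Nr3c1 fell by 0.23 on the log2 scale in TNBS PF against PBS (SE 0.0428, limma adjusted p = 0.00292). The log2 difference was −0.11 in TNBS PF against control PF (95% interval −0.20 to −0.01, limma adjusted p = 0.141) and −0.13 in control PF against PBS (interval −0.22 to −0.03, limma adjusted p = 0.167), and neither passed the threshold of 0.05. These and all further fold changes are on the scale of log2(FPKM + 1), which understates the change of low genes. In bulk RNA, fewer cells that express a gene and less of its RNA per cell cannot be told apart.

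Other steroid receptors of this family had low levels. The mineralocorticoid receptor gene Nr3c2, whose product also binds glucocorticoids, did not exceed 0.0404 FPKM in any library, and the progesterone receptor gene Pgr did not exceed 0.032 FPKM. Of these 3 receptor genes Nr3c1 had the highest level per length in each group.

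Hsd11b1 (ENSMUSG00000016194, chromosome 1, 193221634 to 193264075, minus strand) was represented by few fragments. It had 11, 6 and 7 fragments in the TNBS PF libraries (0.103, 0.0552 and 0.0718 FPKM), 16, 14 and 8 in the control PF libraries (0.19, 0.177 and 0.0874 FPKM), and 6, 9 and 13 in the PBS libraries (0.079, 0.118 and 0.15 FPKM). Control PF 1 and 2 held the highest values, and every pair of groups overlapped. Without the filter on low values its log2 difference was −0.10 in TNBS PF against control PF (limma adjusted p = 0.217), 0.04 in control PF against PBS (limma adjusted p = 0.702) and −0.05 in TNBS PF against PBS (limma adjusted p = 0.499). The means were 0.0767 ± 0.0243 FPKM with TNBS PF, 0.151 ± 0.0558 with control PF and 0.116 ± 0.0358 with PBS (SD, n = 3 each). Before adjustment, p in limma without the filter was 0.0343 in TNBS PF against control PF. No difference was called, as the adjusted p of 0.217 was over 0.05, and the values rest on few fragments.

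The gene of the opposing enzyme, Hsd11b2, which inactivates the hormone, did not exceed 0.302 FPKM. Cyp11a1 and Cyp11b1, which encode enzymes of adrenal steroid synthesis, were listed at 0 in all libraries. H6pd, whose enzyme supplies the reduced cofactor of Hsd11b1 in the endoplasmic reticulum, was well expressed. It fell to 23.9 ± 0.229 FPKM in TNBS PF, against 28.4 ± 0.331 FPKM in control PF (SD, n = 3 each), by 0.24 on the log2 scale (SE 0.0328, limma adjusted p = 0.000507). It also fell in TNBS PF against PBS (25.9 ± 0.801 FPKM), by 0.11 (limma adjusted p = 0.0342), a call that was lost without PBS 1 (adjusted p = 0.113), PBS 2 (0.0537), TNBS PF 1 (0.0747), TNBS PF 2 (0.108) or TNBS PF 3 (0.0816), with only the 2 groups in the fit (0.0574), under median-ratio scaling (0.0525) and with the replicate block (0.0595). In control PF against PBS the log2 difference was 0.13 (limma adjusted p = 0.0582), which passed without PBS 1 (adjusted p = 0.0433) and in limma voom on recovered fragments (0.0372). Of 10 genes of steroid enzymes and related receptors 3 could be tested, and H6pd was the only one called.

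**Figure D2:**
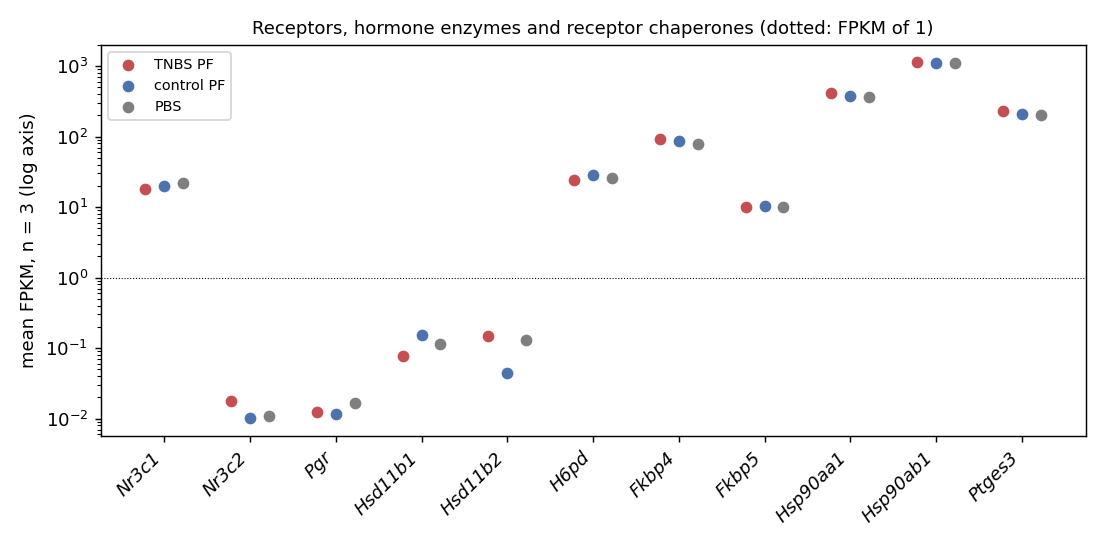
Mean FPKM (log axis, n = 3) of steroid receptors, hormone-converting enzymes and receptor chaperones in TNBS PF, control PF and PBS. Nr3c1 stands near 20 FPKM while Nr3c2 and Pgr stay under 0.02 FPKM, and Hsd11b1 and Hsd11b2 stay under 0.2 FPKM in all 3 groups.

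The chaperones that hold the receptor in its hormone-binding state were highly expressed. Of 10 tested, 3 were higher and 0 lower by limma in TNBS PF against control PF, beside 5.15% and 5.45% of all tested genes. The list median was 0.08 beside −0.01 for all tested genes. None was lower at an unadjusted p under 0.05 or in limma voom, and the 3 higher genes became 1 without TNBS PF 1 or without control PF 2. The groups did not overlap for 6 higher and 2 lower chaperone genes, beside 13.6% and 18.2% of all tested genes. Hsp90aa1, the inducible HSP90 gene, rose by 0.15 (417.5 against 376.8 FPKM, SE 0.0301, limma adjusted p = 0.00752). Hspa4 rose by 0.12 (limma adjusted p = 0.0151), a call lost without TNBS PF 1 (adjusted p = 0.071) and without control PF 2 (0.0514). Ptges3, the p23 co-chaperone gene, rose by 0.11 (limma adjusted p = 0.0382), and this call was lost without any 1 of the 6 libraries compared (adjusted p 0.0791 to 0.139), without the filter (0.0809), under quantile normalization (0.166) and with the replicate block (0.0728).

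Against PBS, 4 chaperone genes were higher and 0 lower in TNBS PF by limma, beside 7.8% and 8.88% of all tested genes. The list median was 0.07 beside −0.01 for all tested genes. Lower genes numbered 1 at an unadjusted p under 0.05, 1 in limma voom, 1 without the filter, 1 under TPM scaling and 2 under quantile normalization. Fkbp4, which encodes FKBP52, the immunophilin that favours receptor transport to the nucleus, rose by 0.22 (91.0 against 78.2 FPKM, SE 0.031, limma adjusted p = 0.000528). Hsp90aa1 and Ptges3 rose by 0.17 each (limma adjusted p = 0.00191 and 0.00265). Stip1, the adaptor between HSP70 and HSP90, rose by 0.13 (limma adjusted p = 0.00872), a call lost under quantile normalization (adjusted p = 0.0715). With control PF against PBS, 0 of the 10 passed in limma, where 2.15% of all tested genes did. Of the 10, 1 was higher and 0 lower at an unadjusted p under 0.05, and 1 passed in limma voom. Fkbp4 came closest there (0.13, limma adjusted p = 0.051) and passed without PBS 2 (adjusted p = 0.0373), under quantile normalization (0.0429) and in limma voom (0.0304).

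Fkbp5 (ENSMUSG00000024222, chromosome 17, 28399094 to 28517527, minus strand) encodes FKBP51, an immunophilin that lowers the hormone affinity of the receptor and is itself induced by it. It had 10.1, 9.91 and 10.2 FPKM in the TNBS PF libraries, 10.6, 10.4 and 10.4 FPKM in the control PF libraries, and 10.5, 9.74 and 9.95 FPKM in the PBS libraries. The 3 TNBS PF values lay under the 3 control PF values by a narrow margin, and the PBS libraries overlapped both other groups. The highest library was 1.09-fold the lowest. The log2 difference of TNBS PF against PBS was 0.002, with a 95% interval of −0.09 to 0.09 (limma adjusted p = 0.98). It was −0.05 in TNBS PF against control PF (interval −0.14 to 0.04, limma adjusted p = 0.508) and 0.05 in control PF against PBS (interval −0.04 to 0.14, limma adjusted p = 0.605). On the fold scale these intervals reached from 0.909 to 1.1 over the 3 comparisons.

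Zbtb16 (ENSMUSG00000066687, chromosome 9, 48654297 to 48836222, minus strand), which encodes the transcription factor PLZF, was listed at 0 in every library. At these depths 3 fragments in its exon length of 5283 bases correspond to 0.0222 to 0.0318 FPKM, the limit that a count of 0 allows for counting error alone.

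Tsc22d3 (ENSMUSG00000031431, chromosome X, 140539528 to 140600659, minus strand) encodes GILZ, a leucine zipper protein that restrains NF-kB and AP-1. It had 6.52, 6.84 and 6.23 FPKM in the TNBS PF libraries, 5.92, 5.41 and 5.84 FPKM in the control PF libraries, and 5.49, 5.59 and 5.34 FPKM in the PBS libraries. Every TNBS PF library was above every other library, while control PF and PBS overlapped. Tsc22d3 rose by 0.22 in TNBS PF against PBS (6.53 ± 0.305 against 5.47 ± 0.125 FPKM, SD, n = 3 each, SE 0.0517, limma adjusted p = 0.012). This call was lost without TNBS PF 2 (adjusted p = 0.0602). In TNBS PF against control PF the log2 difference of 0.16 had a 95% interval of 0.05 to 0.27 and a limma adjusted p of 0.0636, which passed under median-ratio scaling (adjusted p = 0.0482) and quantile normalization (0.0415). In control PF against PBS it was 0.05 (interval −0.06 to 0.17, limma adjusted p = 0.672).

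Sgk1 (ENSMUSG00000019970, chromosome 10, 21882184 to 21999903, plus strand) encodes a serum- and glucocorticoid-regulated kinase that acts on ion transport and cell survival. It had 32.9, 32.1 and 32.1 FPKM in the TNBS PF libraries, 31.4, 29.5 and 30.8 FPKM in the control PF libraries, and 29.4, 28.7 and 28.9 FPKM in the PBS libraries. The 3 groups did not overlap, with TNBS PF highest and PBS lowest. Sgk1 rose by 0.15 in TNBS PF against PBS (SE 0.0326, limma adjusted p = 0.00675). The steps between were not called, at 0.08 in TNBS PF against control PF (interval 0.01 to 0.15, limma adjusted p = 0.144) and 0.07 in control PF against PBS (interval 0.002 to 0.14, limma adjusted p = 0.304).

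Errfi1 (ENSMUSG00000028967, chromosome 4, 150853919 to 150868892, plus strand) encodes MIG6, which binds and inhibits the epidermal growth factor receptor. It had 109.2, 109.6 and 106.0 FPKM in the TNBS PF libraries, 90.2, 89.5 and 89.2 FPKM in the control PF libraries, and 78.9, 73.3 and 81.3 FPKM in the PBS libraries. The groups were separated without overlap, with TNBS PF highest and PBS lowest. Errfi1 rose by 0.27 in TNBS PF against control PF (SE 0.0357, limma adjusted p = 0.000449), by 0.20 in control PF against PBS (SE 0.0357, limma adjusted p = 0.0106) and by 0.47 in TNBS PF against PBS (SE 0.0357, limma adjusted p = 4.38e-06). The call of control PF against PBS was lost without the filter on low values (adjusted p = 0.0506). In the authors' deposited table, whose log2 fold changes are likewise positive where the fluid group is higher, Errfi1 had 0.495 in TNBS PF against PBS with p = 6.89e-31. The deposited p there was 6.05e-05 for Nr3c1, 0.000102 for Sgk1, 0.00158 for Tsc22d3 and 0.0171 for Klf9. It was over 0.05 for Fkbp5, Per1, Dusp1 and Hsd11b1. The deposited call field held only a dash for all 10 genes, and the rule for a call is not given.

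Dusp1 (ENSMUSG00000024190, chromosome 17, 26505590 to 26562128, minus strand) encodes a phosphatase that switches off p38 and JNK kinases. It had 6.69, 6.9 and 6.48 FPKM in the TNBS PF libraries, 6.08, 6.54 and 6.37 FPKM in the control PF libraries, and 6.27, 5.96 and 6.09 FPKM in the PBS libraries. TNBS PF lay above PBS without overlap, and control PF overlapped both. The log2 difference in TNBS PF against PBS was 0.11 (95% interval 0.01 to 0.22) and did not pass (limma adjusted p = 0.125). In TNBS PF against control PF it was 0.07 (limma adjusted p = 0.402) and in control PF against PBS 0.04 (limma adjusted p = 0.721). An exon of Ergic1 on the plus strand overlaps a Dusp1 exon by 11 bases in GENCODE M21, and whether counting used the strand is not given.

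Per1 (ENSMUSG00000020893, chromosome 11, 69095217 to 69109960, plus strand) encodes a repressor of the circadian clock that glucocorticoids induce. It had 3.98, 3.76 and 3.76 FPKM in the TNBS PF libraries, 3.61, 4.77 and 4.2 FPKM in the control PF libraries, and 4.39, 4.4 and 4.3 FPKM in the PBS libraries. Control PF spanned the values of both other groups, with a coefficient of variation of 13.9% against 3.36% in TNBS PF and 1.33% in PBS. TNBS PF lay under PBS without overlap, at a log2 difference of −0.15 that did not pass (95% interval −0.31 to 0.004, limma adjusted p = 0.173). The differences were −0.10 in TNBS PF against control PF (limma adjusted p = 0.439) and −0.05 in control PF against PBS (limma adjusted p = 0.789).

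Klf9 (ENSMUSG00000033863, chromosome 19, 23141226 to 23168134, plus strand) encodes a zinc finger transcription factor induced by glucocorticoid and thyroid hormones. It had 12.0, 11.5 and 12.4 FPKM in the TNBS PF libraries, 12.1, 11.8 and 12.9 FPKM in the control PF libraries, and 12.9, 14.0 and 13.3 FPKM in the PBS libraries. PBS was highest, above control PF by a narrow margin, and the fluid groups overlapped each other. Klf9 fell by 0.15 in TNBS PF against PBS (SE 0.0461, limma adjusted p = 0.0388). The call was lost in 8 of 17 alternatives, without PBS 2 (adjusted p = 0.118), PBS 3 (0.0805), TNBS PF 1 (0.0893) or TNBS PF 2 (0.145), without the filter (0.0674), under median-ratio scaling (0.0511) and quantile normalization (0.052), and with the replicate block (0.0537). In control PF against PBS the log2 difference was −0.12 (95% interval −0.22 to −0.02, limma adjusted p = 0.235) and in TNBS PF against control PF −0.04 (interval −0.13 to 0.06, limma adjusted p = 0.68).

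**Figure D3:**
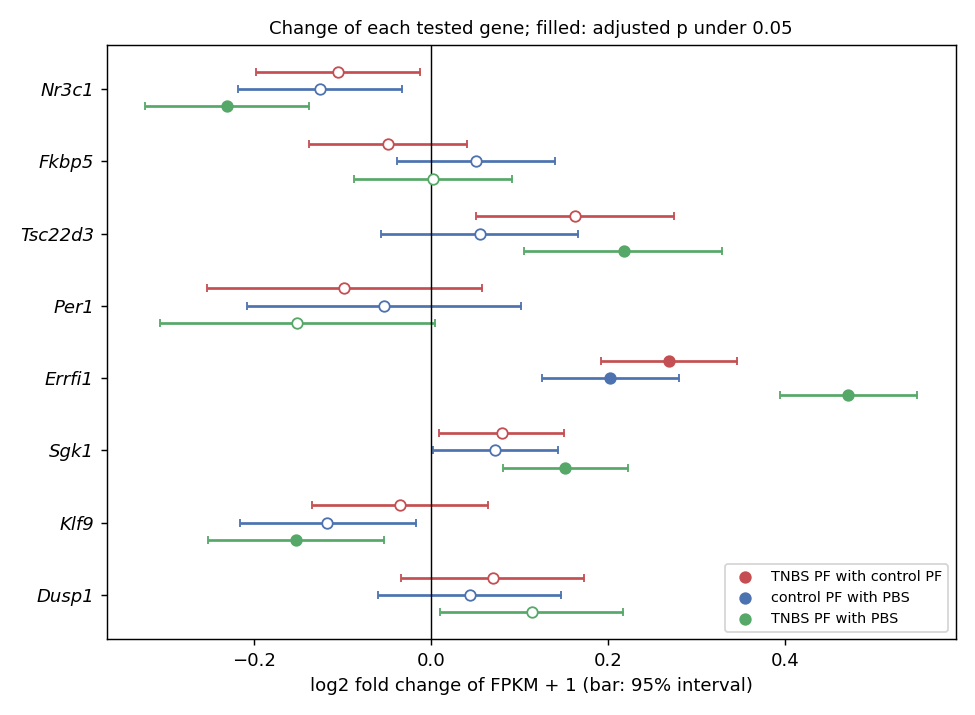
Log2 fold change of FPKM + 1 of the 8 tested genes with 95% intervals from limma, filled where the adjusted p was under 0.05. Errfi1 is filled in all 3 comparisons and reaches 0.47 in TNBS PF with PBS, Nr3c1 and Klf9 lie left of 0 there, and Fkbp5 sits at 0.

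The promoter windows of the target genes were compared for letters that the receptor and other stimulus-dependent factors are known to bind. RefSeq (GRCm38.p6) gave 17 windows for 8 of the 10 genes, each with 250 bases before and 50 after a transcription start. The palindromic glucocorticoid response element (AGAACA and TGTTCT separated by any 3 bases), either of its hexamers (AGAACA or TGTTCT, which also count within the palindrome), the cAMP response element (TGACGTCA) and the E-box (CACGTG) were searched on both strands. Of all 32851 windows in the table, 3 held the palindrome (0.00913%), 19.0% a hexamer, 1.79% the cAMP response element and 7.15% the E-box. The palindrome was found in 1 Sgk1 window, and the cAMP response element in 1 Errfi1 window and in the Dusp1 window. The E-box was found in 4 of the 17 windows, 1 each of Fkbp5, Per1, Sgk1 and Dusp1, and stood 169 to 164 bases before the Fkbp5 start. A hexamer outside the palindrome's window was found at 2 further Sgk1 starts and at 1 of the 3 Tsc22d3 starts. The Fkbp5, Per1, Errfi1, Klf9, Dusp1 and Hsd11b1 windows held neither the palindrome nor a hexamer. Bases outside the windows and inexact forms of the motifs were not searched. A window with no match therefore does not show that its gene lacks a site for the receptor. FPKM per gene do not say which start was used, and a match is a description of letters only.

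The windows with a match of Sgk1 and Tsc22d3, both higher in TNBS PF than in PBS, are shown with the palindrome in capitals for Sgk1 and the hexamer in capitals for Tsc22d3. Those of Errfi1, called in all 3 comparisons, and Dusp1 are shown with the cAMP response element in capitals. The Fkbp5 window, of a target that like Per1 and Dusp1 passed in no comparison, is shown beside them with no capitals, since the E-box is not marked in any of the windows. All are 5′ to 3′ on the strand of the gene. They are chr10:21993640-21993939 on the plus strand for Sgk1, chrX:140600473-140600772 on the minus strand for Tsc22d3, chr4:150854820-150855119 on the plus strand for Errfi1, chr17:26508423-26508722 on the minus strand for Dusp1 and chr17:28486100-28486399 on the minus strand for Fkbp5.
Sgk1: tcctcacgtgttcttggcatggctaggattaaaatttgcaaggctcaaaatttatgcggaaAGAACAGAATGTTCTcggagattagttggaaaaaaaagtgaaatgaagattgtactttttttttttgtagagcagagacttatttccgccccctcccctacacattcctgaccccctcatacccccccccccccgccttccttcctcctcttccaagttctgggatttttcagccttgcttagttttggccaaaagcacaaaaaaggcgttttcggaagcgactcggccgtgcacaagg
Tsc22d3: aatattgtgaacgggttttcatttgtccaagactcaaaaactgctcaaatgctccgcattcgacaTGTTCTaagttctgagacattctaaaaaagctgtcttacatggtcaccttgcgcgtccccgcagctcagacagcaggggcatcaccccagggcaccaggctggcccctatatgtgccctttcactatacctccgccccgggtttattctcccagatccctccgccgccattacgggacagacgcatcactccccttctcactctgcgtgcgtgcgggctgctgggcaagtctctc
Errfi1: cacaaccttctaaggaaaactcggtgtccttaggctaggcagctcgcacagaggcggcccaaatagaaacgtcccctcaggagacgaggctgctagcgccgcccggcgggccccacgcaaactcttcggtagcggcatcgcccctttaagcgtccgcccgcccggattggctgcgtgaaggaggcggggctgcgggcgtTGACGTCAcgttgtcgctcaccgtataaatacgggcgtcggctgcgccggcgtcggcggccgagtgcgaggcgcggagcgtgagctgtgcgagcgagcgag
Dusp1: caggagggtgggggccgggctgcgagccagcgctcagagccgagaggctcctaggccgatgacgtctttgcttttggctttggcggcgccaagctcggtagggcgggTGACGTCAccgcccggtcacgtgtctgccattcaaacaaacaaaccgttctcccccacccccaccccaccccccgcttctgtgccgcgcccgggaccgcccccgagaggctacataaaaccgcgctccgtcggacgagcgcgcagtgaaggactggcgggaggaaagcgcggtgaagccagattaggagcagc
Fkbp5: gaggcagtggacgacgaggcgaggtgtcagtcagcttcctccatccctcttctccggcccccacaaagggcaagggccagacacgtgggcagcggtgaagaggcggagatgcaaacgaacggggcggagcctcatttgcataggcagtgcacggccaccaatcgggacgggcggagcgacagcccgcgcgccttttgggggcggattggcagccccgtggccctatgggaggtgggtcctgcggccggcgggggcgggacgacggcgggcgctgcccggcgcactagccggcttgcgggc
In Sgk1 the palindrome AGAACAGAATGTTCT stood 189 to 175 bases before the start. In Tsc22d3 the hexamer stood 185 to 180 bases before the start. The cAMP response element stood 51 to 44 bases before the Errfi1 start and 143 to 136 bases before the Dusp1 start.

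**Figure D4:**
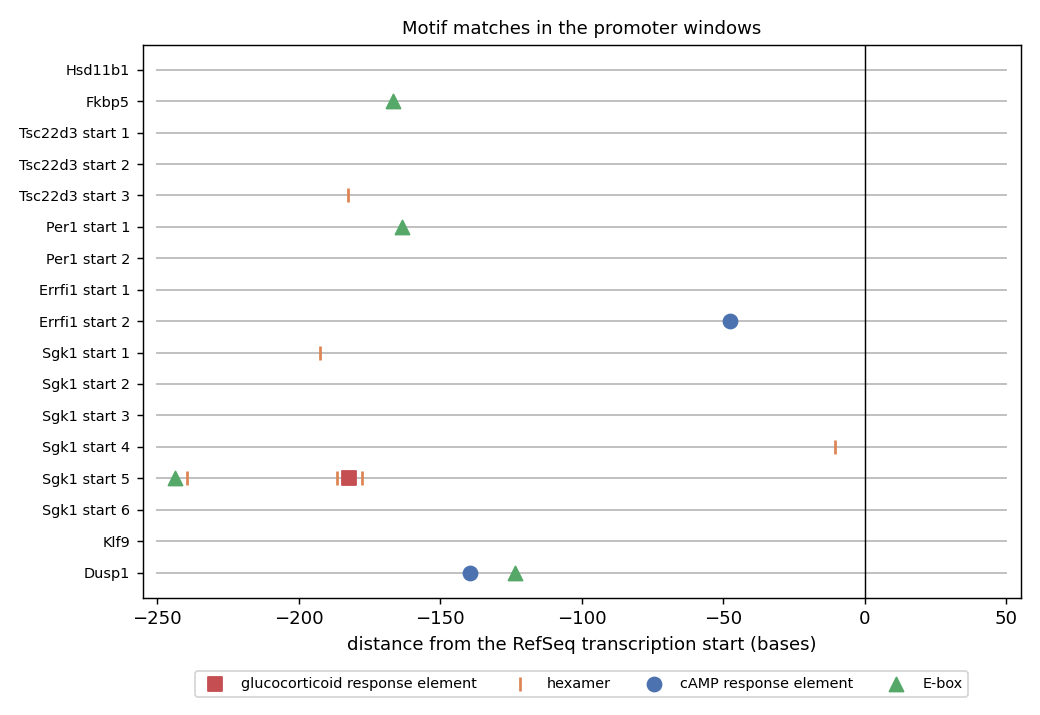
Positions of the 4 motifs in the 17 promoter windows of 8 genes, as the distance in bases from the RefSeq transcription start (vertical line). The palindromic response element appears once, at the fifth Sgk1 start, and the cAMP response element appears at the second Errfi1 start and in Dusp1.

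Other genes that glucocorticoids are known to induce moved in both directions. Of 17 tested (23 in the list), 1 rose and 2 fell in TNBS PF against control PF. The shares of all tested genes were 5.15% and 5.45%, and the list median was −0.09 beside −0.01 for all tested genes. Pdk4, a kinase that restrains glucose oxidation, fell by 0.30 (9.0 against 11.3 FPKM, SE 0.0494, limma adjusted p = 0.00218), and Angptl4, an inhibitor of lipoprotein lipase, fell by 0.22 (13.4 against 15.8 FPKM, SE 0.0412, limma adjusted p = 0.00479).

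Control PF against PBS had 1 of the 17 higher and 0 lower by limma (median 0.05 beside 0.001), where 1.02% and 1.14% of all tested genes were. There were 6 higher and 0 lower at an unadjusted p under 0.05, and 2 higher and 0 lower in limma voom. The gene called by limma was Angptl4, higher by 0.25 (limma adjusted p = 0.00831). TNBS PF against PBS had 1 risen and 1 fallen, beside 7.8% and 8.88% of all tested genes. The median there was 0.02 beside −0.01, and −0.002 under TPM scaling. Pdk4 fell by 0.21 (limma adjusted p = 0.0114), a call lost without TNBS PF 2 (adjusted p = 0.0551).

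Of inflammatory genes that glucocorticoids are known to repress, 12 could be tested (15 in the list). In TNBS PF against control PF 3 were higher and 0 lower by limma, beside 5.15% and 5.45% of all tested genes. The list median was 0.03 beside −0.01 for all tested genes. Lower genes numbered 2 at an unadjusted p under 0.05, 2 in limma voom, 1 with the replicate block and 1 without TNBS PF 3. Ptgs2, the inducible cyclooxygenase gene, rose by 0.45 (107.5 against 78.6 FPKM, SE 0.0337, limma adjusted p = 7.48e-06), and Lif, a cytokine of the IL-6 family, rose by 0.29 (limma adjusted p = 0.000707). Vcam1, a leukocyte adhesion gene, rose by 0.12 (limma adjusted p = 0.0305), a call lost without TNBS PF 1 (adjusted p = 0.0885), TNBS PF 3 (0.128), control PF 1 (0.0569), control PF 2 (0.104) or control PF 3 (0.0694).

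Against PBS, 3 of the 12 rose and 2 fell in TNBS PF (median 0.05 beside −0.01), where 7.8% and 8.88% of all tested genes did. Ptgs2 rose by 0.36 (limma adjusted p = 2.02e-05) and Vcam1 by 0.15 (limma adjusted p = 0.00726). Lif rose by 0.14 (limma adjusted p = 0.0337), a call lost without PBS 1 (adjusted p = 0.075), PBS 2 (0.0669), PBS 3 (0.0692), TNBS PF 2 (0.146) or TNBS PF 3 (0.0595), under TPM scaling (0.0712), with only the 2 groups (0.0524) and with the replicate block (0.0546). The chemokine gene Ccl7 fell by 0.20 (limma adjusted p = 0.0448) although its groups overlapped, and the call was lost in 10 of 17 alternatives with an adjusted p of up to 0.162, among them without TNBS PF 1 (0.0814), TNBS PF 2 (0.162), PBS 2 (0.105) or PBS 3 (0.139) and without any 1 control PF library (0.0554 to 0.0583). For control PF against PBS, 0 of the 12 passed in limma, where 2.15% of all tested genes did. Of the 12, 1 was higher and 4 lower at an unadjusted p under 0.05, and 1 was lower in limma voom. Cxcl10, a chemokine gene, came closest (−0.17, limma adjusted p = 0.0601) and passed without TNBS PF 2 (adjusted p = 0.0178) or TNBS PF 3 (0.0454), under TPM scaling (0.0427), with only the 2 groups (0.0301) and in limma voom (0.0147).

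Of 12 receptor coregulators 0 passed in TNBS PF against control PF and 0 in control PF against PBS in limma. The shares of all tested genes there were 10.6% and 2.15%. At an unadjusted p under 0.05 there were 1 and 2 coregulators, and limma voom called 0 in both. In TNBS PF against PBS 1 rose and 1 fell in limma, beside 7.8% and 8.88% of all tested genes. The list median was −0.04 beside −0.01 for all tested genes. In limma voom, and also at an unadjusted p under 0.05, 1 was higher and 4 were lower. Carm1, an arginine methyltransferase, rose by 0.14 (limma adjusted p = 0.0309), and Med14, a Mediator subunit, fell by 0.13 (limma adjusted p = 0.0288). The call of Carm1 was lost without any 1 of the TNBS PF and PBS libraries (adjusted p 0.0532 to 0.086), under TPM scaling (0.0746) and with the replicate block (0.051). That of Med14 was lost without PBS 1, PBS 3 or any 1 TNBS PF library (adjusted p 0.0624 to 0.0821) and with the replicate block (0.0533).

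The clock genes besides Per1 did not pass in limma. Of 13 tested, 0 were called in each of the 3 comparisons by limma. Shares of all tested genes were 10.6% in TNBS PF against control PF and 2.15% in control PF against PBS. In TNBS PF against PBS the share was 16.7%. At an unadjusted p under 0.05 there were 3, 4 and 4 clock genes in the same order. Limma voom called 1, 1 and 2 of the 13, beside 1548, 374 and 2165 of 10525 genes. Bhlhe40, a clock repressor, came closest in TNBS PF against control PF (−0.13, limma adjusted p = 0.0625) and in control PF against PBS (0.16, limma adjusted p = 0.0657). It passed in the first without PBS 1 (adjusted p = 0.0259) or PBS 2 (0.0468), with only the 2 groups (0.0287) and in limma voom (0.018), and in the second without PBS 1 (0.0194) and in limma voom (0.0146). Tef, a clock output factor, came closest in TNBS PF against PBS (−0.20, limma adjusted p = 0.0725) and passed without PBS 2 (0.0249) and in limma voom (0.0105).

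Errfi1, Sgk1 and Dusp1 are also known to respond to serum and growth factors, so immediate early genes were set beside them. Of 19 tested (22 in the list), 4 were higher and 0 lower by limma in TNBS PF against control PF. The shares of all tested genes were 5.15% and 5.45%, and the list median was 0.12 beside −0.01 for all tested genes. There were 9 higher and 0 lower at an unadjusted p under 0.05, and 6 higher and 0 lower in limma voom. The 4 became 2 without TNBS PF 1 or without TNBS PF 3, and 7 with only the 2 groups in the fit. The MAP kinase phosphatase gene Dusp5 rose by 0.48 (9.7 against 6.65 FPKM, SE 0.0822, limma adjusted p = 0.00243) and Myc by 0.30 (40.0 against 32.3 FPKM, SE 0.0347, limma adjusted p = 0.000197). Dusp6 rose by 0.21 (limma adjusted p = 0.0134), a call lost without TNBS PF 1 (adjusted p = 0.0534), TNBS PF 3 (0.0537) or control PF 3 (0.0524). Egr1 rose by 0.15 (limma adjusted p = 0.0217), a call lost without TNBS PF 1 (0.0631), TNBS PF 3 (0.0975), control PF 1 (0.0507) or control PF 2 (0.0873).

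Against PBS, 5 immediate early genes were higher and 0 lower in TNBS PF by limma, beside 7.8% and 8.88% of all tested genes. The list median was 0.13 beside −0.01, with 1 gene lower at an unadjusted p under 0.05 and 0 lower in limma voom. Of the higher genes, Dusp5 rose by 0.37 (limma adjusted p = 0.0078), Ier3 by 0.25 (limma adjusted p = 0.00914, and 0.05 and not called without the filter) and Myc by 0.25 (limma adjusted p = 0.000442). Fosl1 rose by 0.32 (limma adjusted p = 0.0469), a call lost in 8 of 17 alternatives with an adjusted p of up to 0.156, among them without PBS 2 (0.117), PBS 3 (0.156), control PF 3 (0.0571) or any 1 TNBS PF library (0.0732 to 0.124). Control PF against PBS gave 0 higher and 1 lower by limma (median −0.01 beside 0.001), where 1.02% and 1.14% of all tested genes were. At an unadjusted p under 0.05 there was 1 higher, and 0 were higher in limma voom. The gene called lower was Egr1, by 0.25 (26.7 against 31.9 FPKM, SE 0.0372, limma adjusted p = 0.00413). Errfi1 was higher in that comparison, so the direction of Egr1 and Errfi1 differed there. The cause of the differences in either set of genes was not tested.

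**Figure D5:**
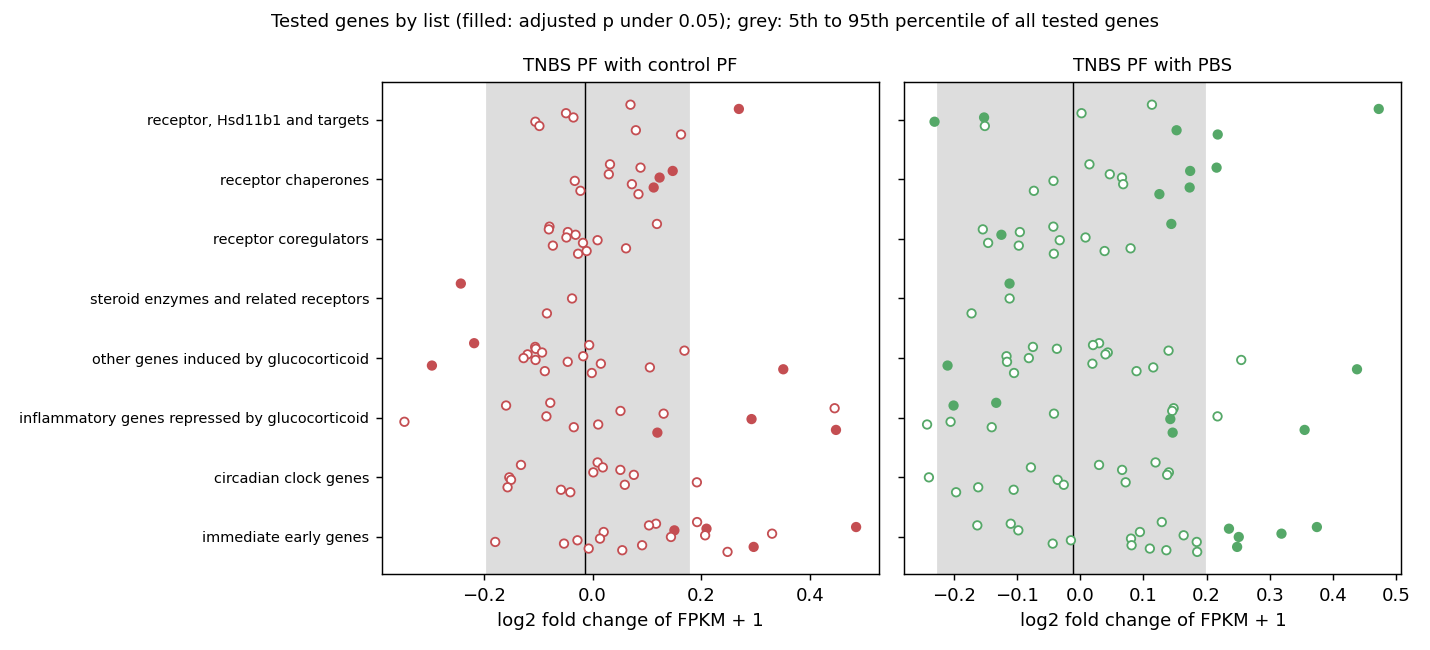
Log2 fold change of FPKM + 1 of every tested gene in 8 lists, in TNBS PF with control PF (left) and TNBS PF with PBS (right); filled points have an adjusted p under 0.05, the line is the median of all tested genes and grey spans their 5th to 95th percentile. Errfi1 stands at 0.47 on the right in the top row, while most receptor coregulators and clock genes are open points within the grey span.

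The genes whose levels over the 9 libraries were most like those of Nr3c1 were Dclk1 (Pearson r 0.992), Fam214b (0.979), Kdm5c (0.962) and Tns1 (0.959). Kdm5c averaged 22.6 ± 0.538 FPKM with TNBS PF, 24.1 ± 0.645 with control PF and 26.0 ± 1.45 with PBS (SD, n = 3 each), the same order of groups as Nr3c1. Those most like Fkbp5 were Mfsd8 (0.935), Pdxk (0.931), Tmem86a (0.916) and Susd6 (0.911). Susd6 averaged 20.8 ± 0.855 FPKM with TNBS PF, 23.4 ± 0.357 with control PF and 21.4 ± 1.52 with PBS. These values describe the 9 libraries, which fall into 3 groups and share their scaling, and they were picked as the highest among 10537 genes.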

How the data were processed

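RNA was sequenced in 9 libraries of 3 groups. Per the submitters' processing notes reads were trimmed with cutadapt 1.15 and the build was mm10. For the aligner, the counting program and the strand of the libraries, the sources used here give nothing. The authors deposited 1 table with FPKM per library and, per the file headers, their own group means, log2 fold changes, p-values and a call field. Neither the test behind the deposited p-values nor the rule for a call is given. The deposited log2 fold changes, p-values and calls were used only where named.

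Multiplied by GENCODE M21 exon lengths, 97.2 to 97.4% of FPKM values under 1000 fragments fell on whole fragments within 0.01, which gave the depth. The 10537 genes that reached an FPKM of 1 in 3 or more libraries were tested on log2(FPKM + 1) in limma 3.58.1 (R 4.3.3), with 1 fit of all 9 libraries, moderated variances with a trend, and Benjamini-Hochberg adjustment over all tested genes at 0.05. The fit was tested on simulated data. Alternatives were a pseudocount of 0.1, no filter, TPM, quantile and median-ratio scaling, only the 2 groups, the replicate number as a block, limma voom on recovered fragments, and leaving out each library.

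The members and lists were chosen with earlier results of these data known. Counts at an unadjusted p under 0.05 are given without the share of all tested genes at that threshold. Named genes are the members, up to 4 called genes per list and comparison by size (or the gene of smallest p) and the 4 genes most like Nr3c1 and Fkbp5, without Gm, Rik and clone names. Marker genes (Pdgfrb and Slpi among them), Ergic1, Nr3c2, Pgr, Hsd11b2, Cyp11a1 and Cyp11b1 fall outside this rule and were named after their values were seen. A called gene that the list counts include is not reported here by name. The motifs were likewise chosen with the results of the members known.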

Additional observations from a re-analysis of the deposited data

How the results depend on the processing

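Over 17 alternatives, 391 of 408 values for the tested receptor and target genes kept their direction and side of the threshold, 10 lost the call, 2 gained it and 5 changed sign. The sign changes were in genes that never passed, namely Fkbp5 in TNBS PF against PBS (−0.019 under TPM scaling, −0.02 to 0.031 over the libraries left out) and Per1 in control PF against PBS (−0.132 to 0.03 over the libraries left out, with 0.03 without control PF 1). Of the 8 tested genes, the number called in TNBS PF against control PF was 1 and became 2 under quantile normalization and 2 under median-ratio scaling, as Tsc22d3 passed. It stayed 1 over the libraries left out. In control PF against PBS the 1 call became 0 without the filter in limma, with 4 at an unadjusted p under 0.05, and stayed 1 over the libraries left out. In TNBS PF against PBS the 5 calls ranged from 3 to 5 over the libraries left out, with 3 without TNBS PF 2. Over all genes, the calls in TNBS PF against control PF numbered 1117, and 661 to 1255 over the libraries left out, with 691, 661 and 676 without TNBS PF 1 to 3 and 733 and 708 without control PF 2 and 3. In control PF against PBS they numbered 227, with 103 without the filter, 374 in limma voom and 115 to 311 over the libraries left out, with 115, 130 and 124 without control PF 1 to 3 and 142 without PBS 3. In TNBS PF against PBS they numbered 1758, and 1148 to 1735 over the libraries left out, with 1148 without TNBS PF 3. The cause of these changes was not tested. Of 697 values for other named genes 74 lost and 18 gained the call, and 83 of 714 list counts changed by more than 1.5 times.

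Same-numbered libraries did not deviate together (correlations of −0.098 to 0.075 across tested genes), so the replicate numbers were not taken as pairs. With the replicate block the calls over all genes numbered 906, 169 and 1537 in TNBS PF against control PF, control PF against PBS and TNBS PF against PBS, and those among the 8 genes 1, 1 and 4. Depth limits Hsd11b1 and Zbtb16, and with 3 libraries a group small differences such as that of Dusp1 may be missed.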
